A study of Arabidopsis thaliana with 4 samples.

Results

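The data described here are the transcript levels of a small set of *Arabidopsis* genes for jasmonic acid (JA) metabolism. The set holds the 2-oxoglutarate oxygenase genes AT3G11180, AT5G05600, AT3G55970 (*JRG21*) and AT2G38240, whose products hydroxylate jasmonate, together with AT1G20510 (*OPCL1*), which encodes a ligase of JA synthesis. The members were chosen by locus with the differences between mutant and wild type already known, so those differences are given below as a description and carry no test. Each of the 5 genes had a probe set annotated to it alone, and no probe set annotated to several genes included any of them. Values were present for 4 genes, of 21754 genes or probe sets tested in all. The probe set of AT3G11180 had no value in any array, and nothing further can be said of this gene. Each genotype, *aln-1* and wild type (WT), was represented by 2 Affymetrix ATH1 arrays of RNA from seedling shoots, taken 2 weeks after germination. The seedlings were grown aseptically on sucrose medium in long days. The *aln-1* line carries one insertion allele, a knockout, of *ALLANTOINASE* (*ALN*) in the Columbia-0 (Col-0) background, and the WT was Col-0, labelled as control. No treatment was applied to either genotype, and no complemented line was among the arrays. Whether replicates were separate cultures is not stated, so p-values reflect array-to-array spread that may be technical.

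JA is made from linolenic acid, in the plastid as far as an oxylipin ring compound and then in the peroxisome, where that compound is reduced, joined to coenzyme A and shortened by beta-oxidation. OPCL1 catalyzes the joining to coenzyme A. JA is then conjugated to isoleucine to give the form that binds the receptor COI1 and releases MYC transcription factors from JAZ repressors. The jasmonate oxidases act at the other end of the path: they hydroxylate free JA, which takes it out of the pool that can be conjugated. Genes for both synthesis and removal of JA are commonly induced by JA itself and by wounding.

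The values are log-scale scores, one per probe set and array. Their base and unit are not named in the sources used here, so the differences below, *aln-1* minus WT, are in deposited units and no fold changes are given. A probe set's score was compared with its own score in other arrays only, since levels of different probe sets cannot be set against each other. Over all probe sets the scores ranged from -1.01 to 3.08.

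As a check of the labels, *ALN*, the mutated gene, scored -0.0466 and 0.00508 in *aln-1*, against 0.367 and 0.442 in WT. It was lower in *aln-1* by a difference of -0.43 (standard error 0.05, adjusted p = 0.0116 from limma) and was not called without WT replicate 1 (adjusted p = 0.0845) or WT replicate 2 (0.0726). The place of its probes relative to the insertion is not known here. WT replicate 1 stood apart in the spiked controls. All 12 poly-A spike probe sets and all 9 hybridization spike probe sets were highest on this array. The actin control probe sets had a 3′ minus 5′ difference of 0.955 and 1.17 in *aln-1*, against 0.0342 and -0.130 in WT. The same difference for the GAPDH controls was 0.193 and 0.257 in *aln-1*, against 0.316 and 0.285 in WT. For ubiquitin it was -0.0194 and 0.0381 in *aln-1*, against -0.0881 and -0.141 in WT. These actin values moved with genotype in the same direction as the members, and their part in the results was not tested.

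Of the jasmonate oxidase genes, AT2G38240 had the largest difference. Its score was 1.34 and 2.20 in the *aln-1* arrays, against 0.000128 and -0.228 in the WT arrays. Both *aln-1* values lay far above both WT values, and the *aln-1* arrays also lay far from each other. The means were 1.77 ± 0.61 in *aln-1* and -0.114 ± 0.161 in WT (SD, n = 2 arrays each), a difference of 1.88. This was the 6th largest positive difference of the 21754 features. The lowest of the 4 differences between an *aln-1* and a WT array was 1.34 and the highest was 2.43.

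AT5G05600 was next. It scored 1.97 and 2.32 in *aln-1*, against 0.929 and 1.07 in WT. The genotypes did not overlap, and the gap between them was wider than either gap between replicates. The means were 2.15 ± 0.25 in *aln-1* and 1.00 ± 0.10 in WT (SD, n = 2 each), a difference of 1.15 that ranked 49th of all features. Single array differences lay between 0.897 and 1.40, below that of AT2G38240 in each of the 4 pairs of the same arrays.

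*JRG21* differed from the others in that its genotypes overlapped. The scores were 0.538 and 0.998 in *aln-1*, against 0.551 and -0.346 in WT. *aln-1* replicate 1 was thus slightly below WT replicate 1, while WT replicate 2 was far below the remaining arrays. The means were 0.768 ± 0.325 in *aln-1* and 0.102 ± 0.634 in WT (SD, n = 2 each), a difference of 0.67 (rank 331 of all features). The WT arrays lay further apart than this, with replicate 2 minus replicate 1 at -0.896. Only 11 of the 21754 features had WT arrays at least this far apart. The difference of *JRG21* was 0.22 without WT replicate 2, 1.11 without WT replicate 1 and 0.44 without *aln-1* replicate 2, so that its size rested on single arrays.

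*OPCL1*, the gene for JA synthesis, had the smallest difference over the 4 arrays and the closest replicates. It scored 1.53 and 1.64 in *aln-1*, against 1.24 and 1.27 in WT. Every *aln-1* value was above every WT value. The means were 1.58 ± 0.08 in *aln-1* and 1.25 ± 0.02 in WT (SD, n = 2 each), a difference of 0.33 that ranked 1285th of all features, with 5.90% of them larger. Single array differences lay between 0.259 and 0.401, below all those of AT5G05600 and AT2G38240 and inside the range of *JRG21*. The difference of AT2G38240 was 5.70 times that of *OPCL1*, that of AT5G05600 3.47 times and that of *JRG21* 2.01 times. The place of *JRG21* in this order rested on single WT arrays. Without WT replicate 2 its difference was 0.22, below the 0.35 of *OPCL1*, and without WT replicate 1 it was 1.11, above the 1.07 of AT5G05600.

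**Figure D1:**
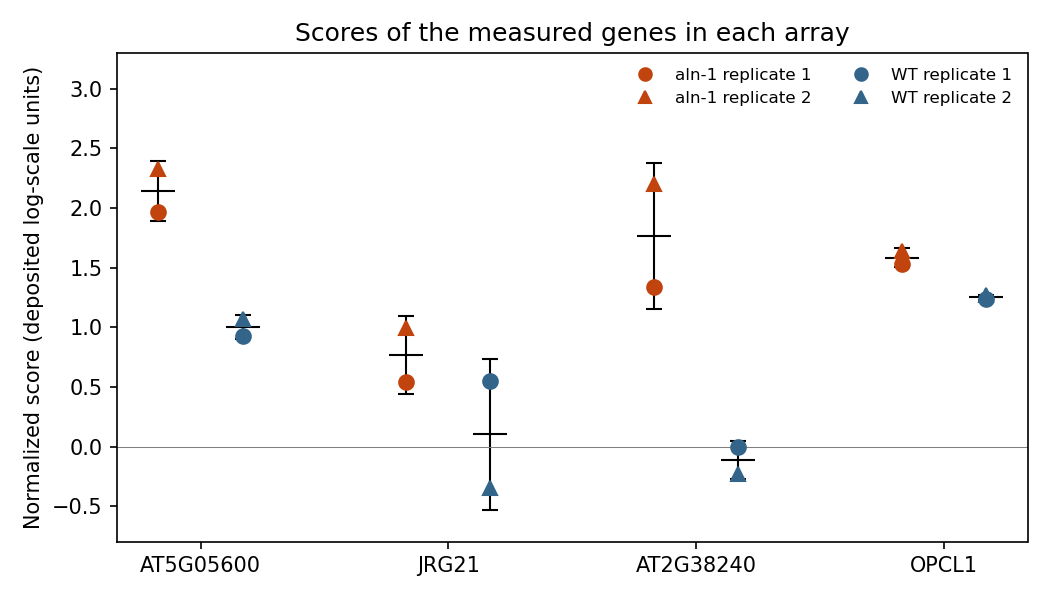
Normalized score (deposited log-scale units) of each gene in each array, with *aln-1* left of WT. Circles are replicate 1, triangles replicate 2, and the bars give the mean ± SD of 2 arrays. The *aln-1* arrays lie above the WT arrays for AT5G05600, AT2G38240 and *OPCL1*, whereas for *JRG21* the *aln-1* value of 0.538 lies below the WT value of 0.551.

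Both *aln-1* arrays were thus above both WT arrays for 3 of the 4 members. Over all features this order was found for 25.4% and the opposite order for 41.4%, and since this contrast was known when the genes were chosen, the count is a description only.

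**Figure D2:**
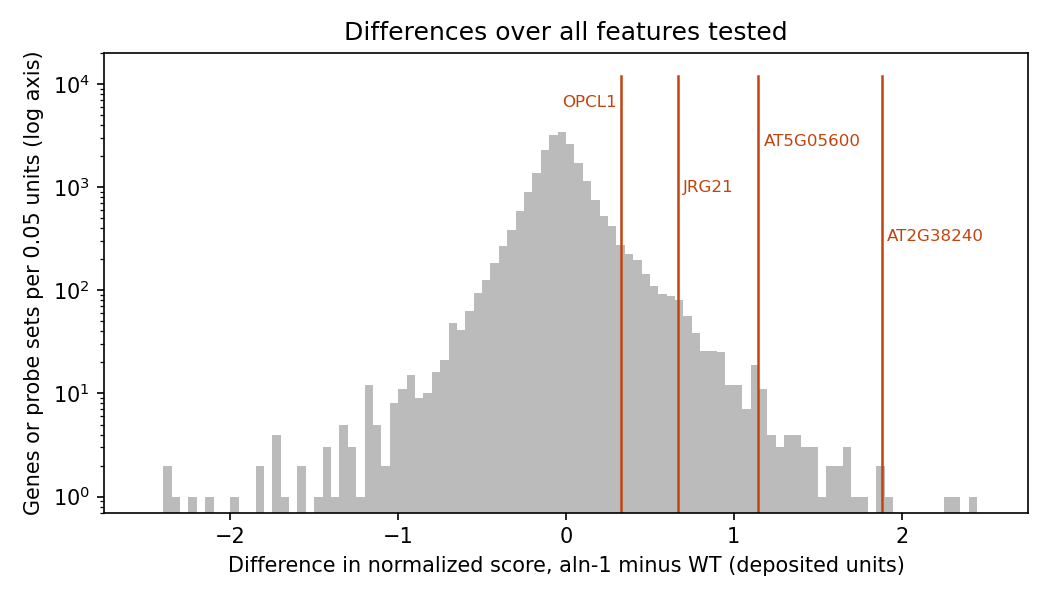
Histogram of the difference in normalized score, *aln-1* minus WT, over the 21754 features tested (deposited units, with the count on a log axis). Lines mark the measured members at 0.33 (*OPCL1*), 0.67 (*JRG21*), 1.15 (AT5G05600) and 1.88 (AT2G38240). The oxidase genes lie in the right-hand tail, and *OPCL1* lies nearer the bulk.

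The members also varied between arrays of one genotype. All 4 were higher in *aln-1* replicate 2 than in *aln-1* replicate 1, by 0.863 for AT2G38240, 0.460 for *JRG21*, 0.355 for AT5G05600 and 0.112 for *OPCL1*. Of all features, 50.9% were higher in replicate 2 than in replicate 1 of *aln-1*. A gap between the *aln-1* arrays as wide as that of AT2G38240 was found for 8 features, and one as wide as that of AT5G05600 for 2.09% of features. The gap of *OPCL1* was common, with 27.1% of features at least as far apart. Between the WT arrays the members did not share a direction. Replicate 2 minus replicate 1 was 0.143 for AT5G05600 and 0.0300 for *OPCL1*, but -0.228 for AT2G38240 and -0.896 for *JRG21*. Of all features, 43.1% were higher in WT replicate 2.

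Markers of touch and handling were also higher in *aln-1* replicate 2. Of 10 such genes listed, 2 were measured. The zinc finger gene *STZ* (also *ZAT10*) scored 1.24 and 1.49 in *aln-1*, against 0.763 and 0.656 in WT. It was higher in *aln-1* by 0.66 (standard error 0.10, adjusted p = 0.0175 from limma), but not called without WT replicate 1 (0.111) or WT replicate 2 (0.0999). The calmodulin-like gene *CML38* scored 0.450 and 0.976 in *aln-1*, against -0.130 and 0.104 in WT. Its difference was 0.73 (standard error 0.19, adjusted p = 0.0585), and the adjusted p was 0.0109 without *aln-1* replicate 1. For both genes *aln-1* replicate 2 was the higher *aln-1* array, as for the members. What part handling had in the differences of the members was not tested.

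Other tissue markers were thinly covered. The leaf gene *RCA*, which encodes Rubisco activase, scored 2.52 and 2.39 in *aln-1*, against 2.77 and 2.72 in WT, and was 1 of 6 leaf genes measured. It was lower in *aln-1* by a difference of -0.29 (standard error 0.06, adjusted p = 0.0390 from limma). The call was lost without *aln-1* replicate 2 (adjusted p = 0.0867), WT replicate 1 (0.212) or WT replicate 2 (0.142). The root hair gene *EXPA7*, 1 of 8 root genes measured, scored -0.104 and 0.00141 in *aln-1*, against -0.277 and -0.324 in WT. It was higher by 0.25 (standard error 0.06, adjusted p = 0.0431), and not called without *aln-1* replicate 2 (adjusted p = 0.108), WT replicate 1 (0.183) or WT replicate 2 (0.187). The senescence gene *SAG29*, 1 of 4 listed, had a difference of 0.12 (standard error 0.09, adjusted p = 0.373), and none of 4 seed genes was measured. In bulk samples, fewer cells of a type and less RNA per cell cannot be told apart, and the part of tissue composition in the members' differences was not tested.

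Genes with the profile most like each member over the 4 arrays were found by the root mean square distance between scores centred on each gene's own mean, among 12657 genes with a probe set of their own. For AT5G05600 the nearest was AT5G16010, at a distance of 0.00948, with 1.87 and 2.25 in *aln-1*, against 0.847 and 0.994 in WT. AT2G43535, AT1G51090, *NAMT1* (AT5G04370) and AT2G34930 followed, at distances up to 0.0553. For *OPCL1* the nearest genes were AT3G06780, *bHLH104*, AT3G22290, *CYP71B26* and AT2G46100, at 0.00459 to 0.0105. Such small distances mean that the profiles of AT5G05600 and *OPCL1* were nearly matched by other genes on these arrays.

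The remaining oxidase genes had no counterpart as close by this distance. It was not scaled to the size of a gene's difference, so it mixes that size with the shape of a profile. For AT2G38240 the nearest gene was AT5G23830, at 0.266, with 1.76 and 2.15 in *aln-1*, against 0.0701 and 0.382 in WT, followed by *UGT76E12*, AT1G15010, *UGT78D1* and AT5G45500, at up to 0.331. For *JRG21* the list was AT1G10585, AT3G01830, AT3G42580, AT1G05340 and *GLR2.7*, at 0.238 to 0.283. No member was among the 5 nearest genes of another. The distances between members were 0.388 for *JRG21* and *OPCL1*, 0.419 for AT5G05600 and *OPCL1*, 0.429 for AT5G05600 and AT2G38240, and 0.441 for AT5G05600 and *JRG21*. AT2G38240 was 0.668 from *JRG21* and 0.825 from *OPCL1*. Neighbours in these orders are descriptive only, as 4 arrays define each profile.

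**Figure D3:**
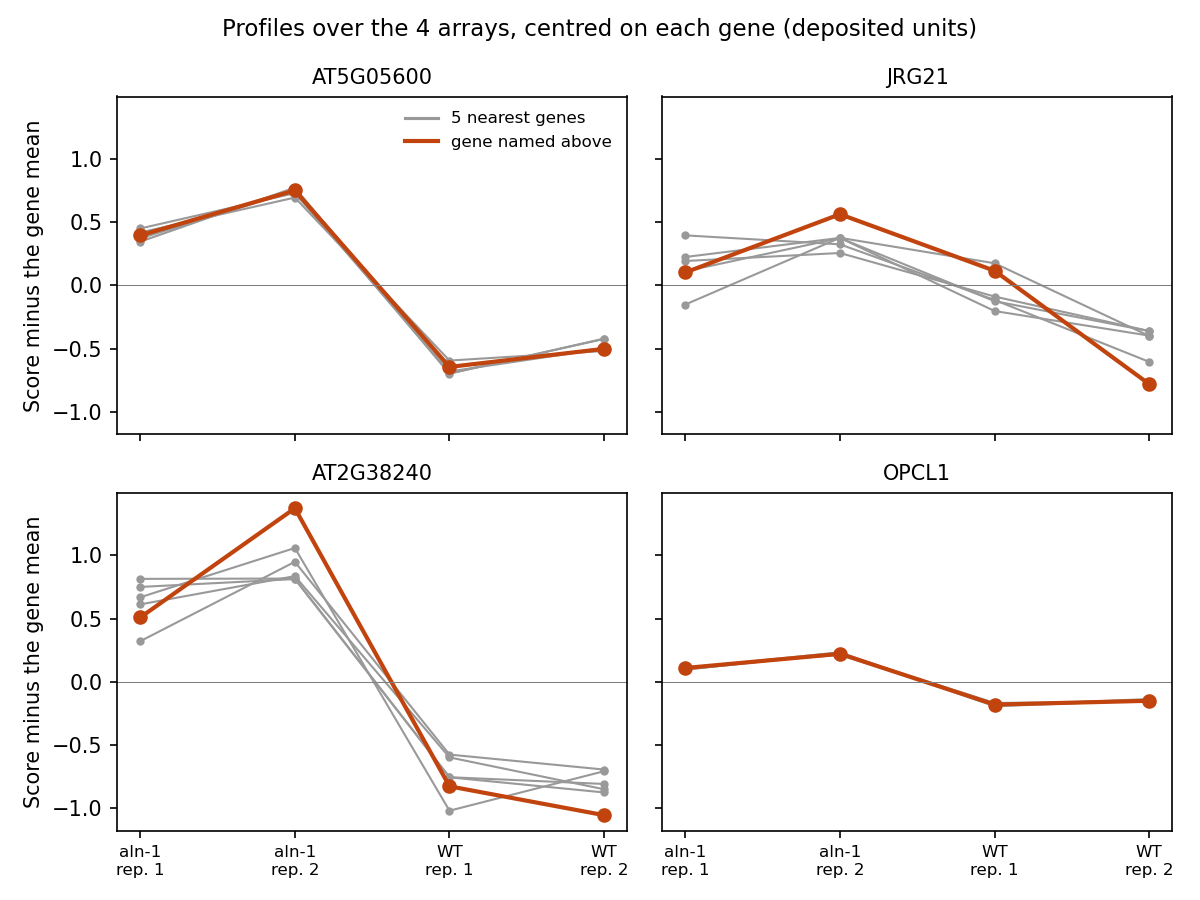
Score minus the gene's mean over the 4 arrays (deposited units), for each member (thick line) and its 5 nearest genes (thin lines), by array. The thin lines for *OPCL1* lie under the thick one, at distances of at most 0.0105. For AT2G38240 and *JRG21*, replicate 2 of both *aln-1* and WT lies outside the nearest genes.

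Of the other genes in the JA pathway, only a minority were compared by name, as a probe set annotated to them alone was required. The study mapped array values of genes for JA enzymes and JAZ proteins, among others, and reported that most of them rose. The genes compared here are therefore not a measure of the pathway as a whole. The lists for JA synthesis, conjugation and turnover, signaling and JA-responsive outputs named 75 genes besides the members, of which 11 were tested. For the other 64, the annotation used here gave no probe set to the gene alone, which does not show that the array lacks one. At an adjusted p under 0.05 from limma, 4 of the 11 were higher in *aln-1*, 2 were lower and 5 did not pass. The 4 higher genes include AT1G70480, whose role in JA synthesis was not established here. Over all 21754 features, 15.6% passed, with 7.42% higher and 8.17% lower. The median difference of the 11 genes was -0.00286, beside -0.0320 over all features. The lists pool genes that the study reported as rising with others it reported as falling, so this median does not measure a JA response. The lists were drawn up with earlier results of these arrays known, and their counts are not independent evidence of a direction.

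In the list for JA synthesis, 1 of the 3 measured genes of 23 rose. This was AT1G70480, whose role in JA synthesis was not established here. The other 2 measured genes, *AIM1* and *DGL*, did not pass. AT1G70480 scored 0.840 and 0.832 in *aln-1*, against 0.591 and 0.647 in WT, a difference of 0.22 (standard error 0.05, adjusted p = 0.0379 from limma). The call did not survive the loss of any array. The adjusted p was 0.0670 and 0.0918 without *aln-1* replicate 1 or 2, and 0.215 and 0.127 without WT replicate 1 or 2. *AIM1*, which encodes a peroxisomal beta-oxidation enzyme acting after OPCL1, scored 1.41 and 1.33 in *aln-1*, against 1.48 and 1.47 in WT, a difference of -0.11 (standard error 0.05, adjusted p = 0.175). *DGL*, which encodes a lipase, had a difference of -0.0029 (standard error 0.06, adjusted p = 0.981), and its sign changed with the scaling of the arrays, to 0.0361 after quantile normalization and 0.0154 after centring on array medians.

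Of the 11 genes for conjugation and turnover of JA, 1 was measured. *JMT*, which encodes the enzyme that forms methyl jasmonate, scored 0.175 and 0.239 in *aln-1*, against -0.566 and -0.520 in WT, and was higher by 0.75 (standard error 0.05, adjusted p = 0.00406 from limma). Its WT mean was near the floor of the scores, with 2.19% of features below it. Its adjusted p was 0.0545 without WT replicate 1. In JA signaling, 2 of 22 genes were measured and neither passed at an adjusted or an unadjusted p under 0.05. The difference of *MYC3* was 0.11 (standard error 0.05) and that of *MYC4* was -0.05 (standard error 0.06).

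Among the JA-responsive outputs, 5 of 19 genes were measured and moved in both directions. From these same arrays, the study reported *BSMT1* as raised, in a branch of JA signaling that the transcription factor MYC2 promotes. It reported the *PDF1.2* genes as reduced, in a branch that MYC2 represses. *BSMT1*, which encodes a methyltransferase of salicylic acid, scored 0.658 and 0.780 in *aln-1*, against -0.375 and -0.546 in WT, and rose by 1.18 (standard error 0.08, adjusted p = 0.00417 from limma). Its WT mean was low, with 6.32% of features below it. The thionin gene *THI2.1* rose by 0.86 (standard error 0.08, adjusted p = 0.00746). The defensin gene *PDF1.2b* fell by 1.35 (standard error 0.18, adjusted p = 0.0150). Its relative *PDF1.2* (AT5G44420) fell by 0.68 (adjusted p = 0.0221, standard error 0.11). The probe set of *PDF1.2b* is of a kind that can share probes with similar genes, so its value is uncertain. The anthocyanin synthesis gene *DFR* had a difference of -0.15 (standard error 0.06, adjusted p = 0.171). The call of *THI2.1* was lost without WT replicate 1 (0.0783) or WT replicate 2 (0.0540). That of *PDF1.2* was lost without either of these arrays (0.119 and 0.0538) and without *aln-1* replicate 2 (0.0572). The differences of *BSMT1* and *THI2.1* lay between those of *JRG21* and AT2G38240 in size.

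Other 2-oxoglutarate-dependent dioxygenases, the enzyme superfamily of the jasmonate oxidases, made up a list of 29 genes. Of these 6 were measured, and none passed at an adjusted p under 0.05 from limma, with 2 at an unadjusted p under 0.05. Both were adjacent loci. AT1G14120 scored 1.46 and 1.97 in *aln-1*, against 0.910 and 1.15 in WT, a difference of 0.68 (standard error 0.18, adjusted p = 0.0621). AT1G14130 scored 0.742 and 1.02 in *aln-1*, against 0.396 and 0.524 in WT, a difference of 0.42 (standard error 0.10, adjusted p = 0.0549). For both, *aln-1* replicate 2 was the highest array, and they passed without *aln-1* replicate 1 (adjusted p = 0.0119 and 0.0149). AT1G14130 also passed after centring on array medians (0.0499) and with a trended variance (0.0492). The other 4, which included the feruloyl-CoA hydroxylase genes AT3G13610 and AT1G55290, lay between -0.11 and -0.02, beside the median of -0.0391 for the list. Each measured jasmonate oxidase gene except *JRG21* differed by more than any measured dioxygenase of the list, a contrast that was not tested. The members were chosen with their differences known, so this order is a description only.

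The ligase family of OPCL1 was better covered, with 7 of 12 genes measured for 4-coumarate:CoA ligases (4CL) and similar proteins. Of these, 2 rose and 5 did not pass at an adjusted p under 0.05 from limma, and the median difference was 0.0799. *4CL8* (AT5G38120) scored 0.0167 and 0.403 in *aln-1*, against -0.372 and -0.365 in WT, a difference of 0.58 (standard error 0.13, adjusted p = 0.0431). AT4G19010 scored 0.0808 and 0.0919 in *aln-1*, against -0.134 and -0.160 in WT, a difference of 0.23 (standard error 0.04, adjusted p = 0.0282). Both calls were lost without WT replicate 1 (adjusted p = 0.206 and 0.160) or WT replicate 2 (0.168 and 0.148), and that of AT4G19010 also without *aln-1* replicate 2 (0.0763). AT4G05160 had a negative difference, -0.19 (standard error 0.05, adjusted p = 0.0528). It passed as lower after quantile normalization (0.0437), without the lowest 33% of features (0.0405) and with a trended variance (0.0448).

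**Figure D4:**
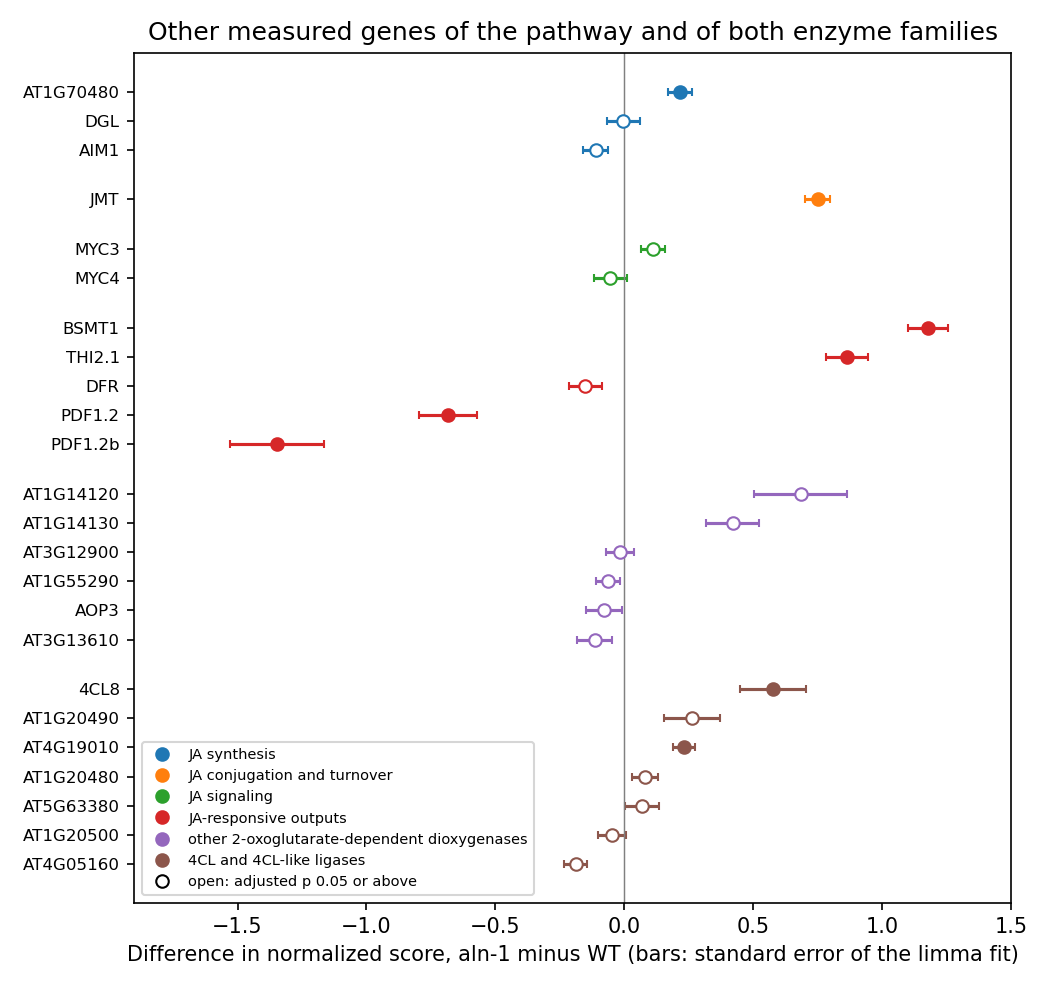
Difference in normalized score, *aln-1* minus WT, with the standard error of the limma fit, for the measured genes of the JA lists and of both enzyme families, members left out. Filled points passed an adjusted p under 0.05. The 6 filled points of the JA lists run from -1.35 (*PDF1.2b*) to 1.18 (*BSMT1*), and no dioxygenase point is filled.

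In the gene order of RefSeq assembly TAIR10.1, both oxidase genes AT3G11180 and AT5G05600 had a gene for a plastid fatty acid desaturase nearby and an Alfin-like gene as the next locus. AT3G11180 lay between *FAD7* and *AL2*, and AT5G05600 lay next to *AL1* with *FAD8* 3 places away on its other side. These desaturases form linolenic acid, from which JA is made. None of these neighbours was measured here. *OPCL1* lay next to AT1G20480, AT1G20490 and AT1G20500, which are in the ligase list. AT1G20490 scored 0.475 and 0.754 in *aln-1*, against 0.268 and 0.434 in WT, a difference of 0.26 (standard error 0.11, adjusted p = 0.160 from limma, 0.0389 without *aln-1* replicate 1). AT1G20480 had a difference of 0.08 and AT1G20500 one of -0.05, with adjusted p of 0.315 and 0.576.

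Over the 3 nearest genes on each side of every member, 11 of 30 were measured and none passed at an adjusted p under 0.05 from limma, with 2 at an unadjusted p under 0.05. AT2G38250, the next locus to AT2G38240, scored -0.292 and 0.123 in *aln-1*, against -0.385 and -0.464 in WT. Its difference was 0.34 (standard error 0.14, adjusted p = 0.154, and 0.0113 without *aln-1* replicate 1). AT3G55940 near *JRG21* had a difference of 0.24 (standard error 0.07, adjusted p = 0.0835, and 0.0315 without *aln-1* replicate 1), and AT3G55960, directly beside it, one of -0.02. AT3G11210 near AT3G11180 had a difference of 0.18 (standard error 0.04, adjusted p = 0.0547) and passed after centring on array medians (0.0449), after quantile normalization (0.0408), without the lowest 33% of features (0.0410) and with a trended variance (0.0450). The other genes beside *OPCL1* (AT1G20520, AT1G20530 and AT1G20540) and AT3G11160 lay between -0.12 and 0.05.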

How the data were processed

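The authors fitted a lognormal distribution with a threshold parameter to each ATH1 array (SuperNORM service) and deposited a log-scale score for each probe set and array. The sources used here do not give the background step, the summary of probes or the log base. The deposited table also holds p-values from the authors' own comparison, which were not used. Of 22746 probe sets without controls, 842 had no values. Probe sets annotated to 1 gene (13513) were named through gene IDs of RefSeq assembly TAIR10.1 (13436 matched), and of several probe sets for a gene the one of highest mean was kept. For other genes, *aln-1* was compared with WT by lmFit and eBayes (limma 3.58.1, R 4.3.3) in a model holding genotype alone, with p-values adjusted over 21754 features by Benjamini-Hochberg. Standard errors come from the same moderated model.

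The study's two-way ANOVA could not be repeated, since its second factor is not named. On simulated data for 21754 features, all of 200 features changed by 1 unit were recovered (100%), with 7 others called. Every simulated feature had the same variance, the median over the real features. The recovery therefore checks that the code runs as intended and does not measure power for features that vary more. Precision is limited by the number of arrays. The members and gene lists were chosen with earlier results of these data known. Named were the members, *ALN*, listed genes by smallest p, the 5 nearest profiles and the 3 nearest genes on each side. Alternatives were quantile normalization, centring on array medians, leaving out the lowest 33% of features, averaging the probe sets of a gene, a trended variance, the replicate number as a block, leaving out each array, and the series' value table, which differed from the deposited one by at most 4.6e-08.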

Additional observations from a re-analysis of the deposited data

How the results depend on the processing

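The difference of each member stayed positive under every alternative run. For AT2G38240, AT5G05600 and *OPCL1*, whose genotypes did not overlap, leaving out an array cannot change the sign. Without single arrays it ranged over 1.45 to 2.31 for AT2G38240, 0.97 to 1.32 for AT5G05600, 0.22 to 1.11 for *JRG21* and 0.27 to 0.39 for *OPCL1*. The difference of *ALN* ranged over -0.46 to -0.39. In the JA lists, the count of higher genes ranged over 1 to 3 and of lower genes over 1 to 2. Over all features, 1615 higher and 1778 lower calls became 71 to 2114 higher and 61 to 2372 lower, 71 and 61 being without WT replicate 1 and 288 and 256 without WT replicate 2. Such fits have fewer degrees of freedom, and the lone array of a genotype is assumed to vary like the other genotype.

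Signs that turned belonged to differences near 0. *DGL* gave 0.0361 after quantile normalization and 0.0154 after centring, AT3G12900 0.0151 and 0.0021, and AT1G20500 0.0091 after quantile normalization. Without single arrays, *DGL* ran from -0.0653 to 0.0596, *MYC4* from -0.11 to 0.0069, AT3G12900 from -0.0678 to 0.0357, *AOP3* from -0.16 to 0.0083, AT1G20500 from -0.10 to 0.0086 and AT5G63380 from -0.0024 to 0.14. The neighbours AT3G11160, AT3G55960 and AT1G20520 ran from -0.12 to 0.0248, -0.0639 to 0.0168 and -0.0046 to 0.11. The cause was not tested.

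Nothing in the labels says that replicate numbers pair the arrays, and replicate 1 minus replicate 2 had a correlation over features of 0.0413 between genotypes. With the replicate number as a block, 1918 features were higher and 1854 lower. AT1G70480 and *EXPA7* lost their calls (adjusted p = 0.0526 and 0.0508), and AT1G14120, AT1G14130, *CML38*, AT1G20490 and AT3G55940 gained one (0.0065, 0.0127, 0.0062, 0.0373 and 0.0444). *JMT* was left out with the lowest 33% of features. Promoter and protein sequences were not analysed here, so those alternatives were not run, and no probe set shared by several genes included a member.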
